A study of Mus musculus with 12 samples.

Results

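The Myc family and the Max network were followed through the copy-number tables of 2 murine pancreatic ductal adenocarcinoma (PDAC) lines. The members are the 10 genes Myc, Mycn, Mycl, Pvt1, Max, Mxd1, Mxi1, Mnt, Mga and Mlx, chosen by name, of 20947 autosomal gene names that fell in a single segment of each line. The lines, 15376T and 14837T, are primary tumor lines of C57BL/6 mice that carried tetO_LKrasG12D, ROSA_rtTA, p48-Cre and Trp53 L/+, and were kept with doxycycline. In these mice the p48 promoter drives Cre in the pancreas, and the labels give the genotype of both libraries as WT. Genomic DNA of each line was sequenced once after exome capture (whole-exome sequencing, WES), as the libraries WES-15376T and WES-14837T, so no value has a replicate and no test between the lines was possible. Tail DNA and the RNA samples of the series were not analysed here.

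Myc, Mycn and Mycl are transcription factors with a basic helix-loop-helix leucine zipper. They bind DNA as dimers with Max, mostly at the E-box, and drive genes of growth and metabolism. Mxd1, Mxi1, Mnt and Mga also pair with Max and mostly repress such genes, Mlx is a Max-like partner for some of these proteins, and Pvt1 is a long noncoding RNA gene beside Myc. Gain of MYC is a known event in pancreatic cancer.

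The E-box CACGTG, which reads the same on both strands, was searched in RefSeq promoters on GRCm38.p6, from 250 bases before to 50 after each start. Windows were found for 8 of the 10 members, and Mnt, Mlx and Max held the motif, beside 8.09% of all genes with a promoter window (2187 of 27025). The stretches around it are shown because these genes are the only members with the motif in these windows. All of them were called at 2 copies in both lines, as were 41.4% of autosomal genes. Mxd1 and Mga, whose windows lack the motif, were called at 2 copies in both lines too. Capitals mark the E-box, and each stretch is written 5′ to 3′ on the strand of its gene.
Mnt: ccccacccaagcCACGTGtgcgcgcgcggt
Mlx: ggtgggttggatCACGTGactgagcctcgc
Max: ggtgagcccggtCACGTG
The stretch of Mnt lies at chr11:74830789-74830818 on the plus strand. There 117 bases lie between the E-box and the start on which its promoter window is set. That of Mlx lies at chr11:101087238-101087267 on the plus strand, with 34 bases between the motif and the start. In Max, at chr12:76962246-76962263 on the minus strand, the last 3 bases of the motif are at or past the start. These starts lie inside the spans given for the genes below, and each motif also reaches into its gene span. A match of these letters is a description and not a binding site.

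Each segment, a run of neighboring bins of like coverage, had its coverage set against a reference as a log2 ratio, together with the number of copies called from it by the authors, a mean read depth and a B-allele fraction (BAF). More than 2 copies is written as gained (log2 above 0.2) and fewer as lost (log2 of -0.25 or below). The mean autosomal depth was 43.4 in 15376T and 47.5 in 14837T. In place of a replicate error, the SD of log2 over autosomal segments at 2 copies was used, which was 0.090 in 15376T and 0.095 in 14837T. These SDs combine to 0.131 for a difference between the lines. That spread is narrowed by the call limits themselves, and a gene's log2 is that of its whole segment. On a baseline of 2 copies, the log2 would be 0.58 if every cell held 3 copies, and -1 with 1 copy in every cell. Whether the baseline of each line is 2 copies was not tested.

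**Figure D1:**
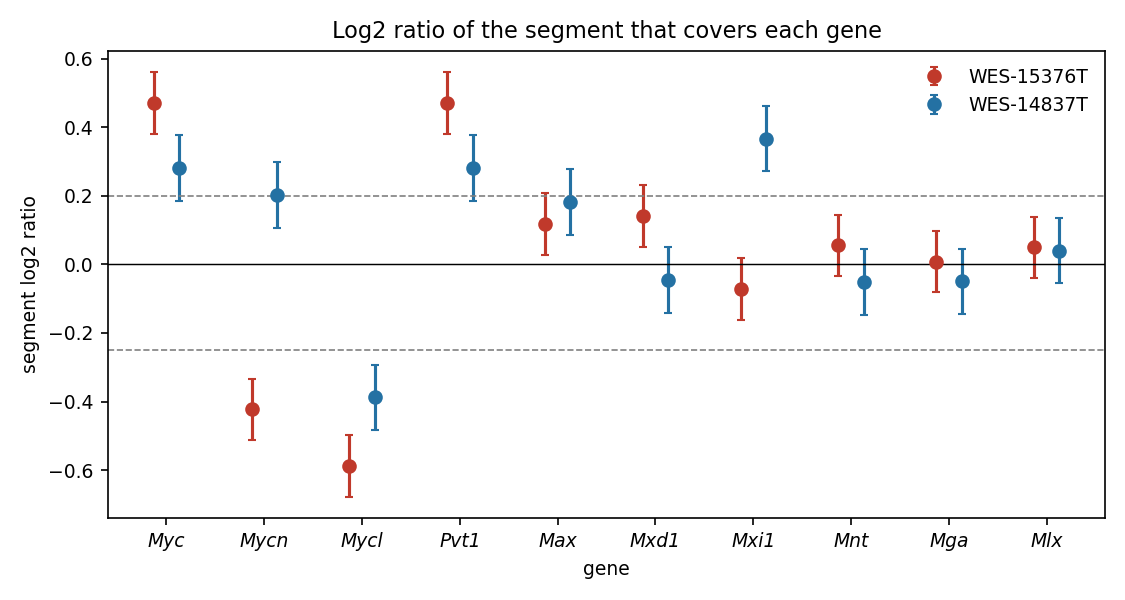
Segment log2 ratio (y axis) of each of the 10 members (x axis) in 15376T and 14837T, with the SD of log2 over autosomal segments at 2 copies as error bars and the call limits of 0.2 and -0.25 as dashed lines. Myc and Pvt1 lie above the upper limit and Mycl below the lower limit in both lines, while Mycn lies below the lower limit in 15376T and at 0.20 in 14837T.

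Myc (chr15:61985341-61990361, GRCm38.p6) had a log2 of 0.47 in 15376T, a coverage ratio of 1.39, and was called at 3 copies. In 14837T its log2 was 0.28, a ratio of 1.22, and the call was again 3 copies. Both values are above the call limit, and their difference of 0.19 is 1.46 times the SD of a difference. A smaller difference between the lines was seen for 60.9% of autosomal genes. Myc ranked above 95.7% of autosomal genes in 15376T and above 82.1% in 14837T.

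The gain was not limited to Myc. The segment that held Myc spanned 8.63 Mb with 41 genes in 15376T and 9.03 Mb with 44 genes in 14837T, and it ended at the same base in both, 1.48 Mb to the right of Myc. On the left it began 7.14 Mb from Myc in 15376T, where log2 stepped from -0.11 in the neighboring segment by 0.58. In 14837T it began 7.55 Mb away, and the step from 0.10 was 0.18. The shared right end borders a stretch that no segment covered in either line, up to 1.79 Mb from Myc. The next segment to the right was gained as well, with log2 of 0.46 in 15376T and 0.30 in 14837T. The log2 of the Myc segment minus that of this segment was 0.011 in 15376T and -0.016 in 14837T, within the SD of each line. The run of gained segments around Myc, counted across that stretch, covered 26.6 Mb in 15376T and 10.8 Mb in 14837T. On each chromosome 15, 3 segments had a higher log2 than that of Myc, among 14 in 15376T and 10 in 14837T. Of chromosome 15, 27.0% of the length was gained in 15376T and 76.4% in 14837T.

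Pvt1 (chr15:62037986-62260215), which lies to the right of Myc, shared its segment and therefore its log2 values of 0.47 and 0.28. The gene listed on the other side of Myc, A1bg, was in that segment too. Myc and Pvt1 are 1 measurement, and the 10 members stand for 9 segments in each line.

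Mycn (chr12:12936093-12941836) was lost in 15376T and gained in 14837T, the only member with opposite calls. Its log2 was -0.42 in 15376T, a ratio of 0.746, with a call of 1 copy. In 14837T it was 0.203, a ratio of 1.15, with a call of 3 copies that lies just above the limit of 0.2. The difference of -0.63 is 4.78 times the SD of a difference, and 97.8% of autosomal genes differed by less. A loss in 15376T together with a gain in 14837T was called for 1.19% of autosomal genes.

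In 15376T the border of the segment of Mycn lay 0.421 Mb to its right, inside Nbas, a gene of vesicle transport named after its values were seen. Across that border the log2 fell from -0.42 to -1.23, called at 0 copies, over 46 bins. The default limit for that call is -1.1, and 1 copy in every cell would give -1 on a baseline of 2 copies. The depth of the segment beyond the border was 12.4. The own depth of Nbas was 47.1 over 25 bins on the side of Mycn and 17.7 over 34 bins beyond the border. Ddx1, an RNA helicase gene next to Mycn, lay on the side of the call of 1 copy, with an own depth of 56.7 over 24 bins. In 14837T no border fell near Mycn, and 1 segment of 16.1 Mb held Mycn, Ddx1 and the neighbor on the other side, 4921511I17Rik.

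Mycl (chr4:122995588-123002490) was lost in both lines. It had a log2 of -0.59 in 15376T, a ratio of 0.665, and -0.39 in 14837T, a ratio of 0.764, each called at 1 copy. The loss took in most of the chromosome, since the segment covered 143 Mb with 1161 genes in 15376T and 82.9 Mb with 785 genes in 14837T. Of chromosome 4, 100% of the length was lost in 15376T and 72.3% in 14837T. The difference between the lines of -0.20 is 1.52 times the SD of a difference. Its neighbors Mfsd2a and Trit1 lay in the same segments.

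**Figure D2:**
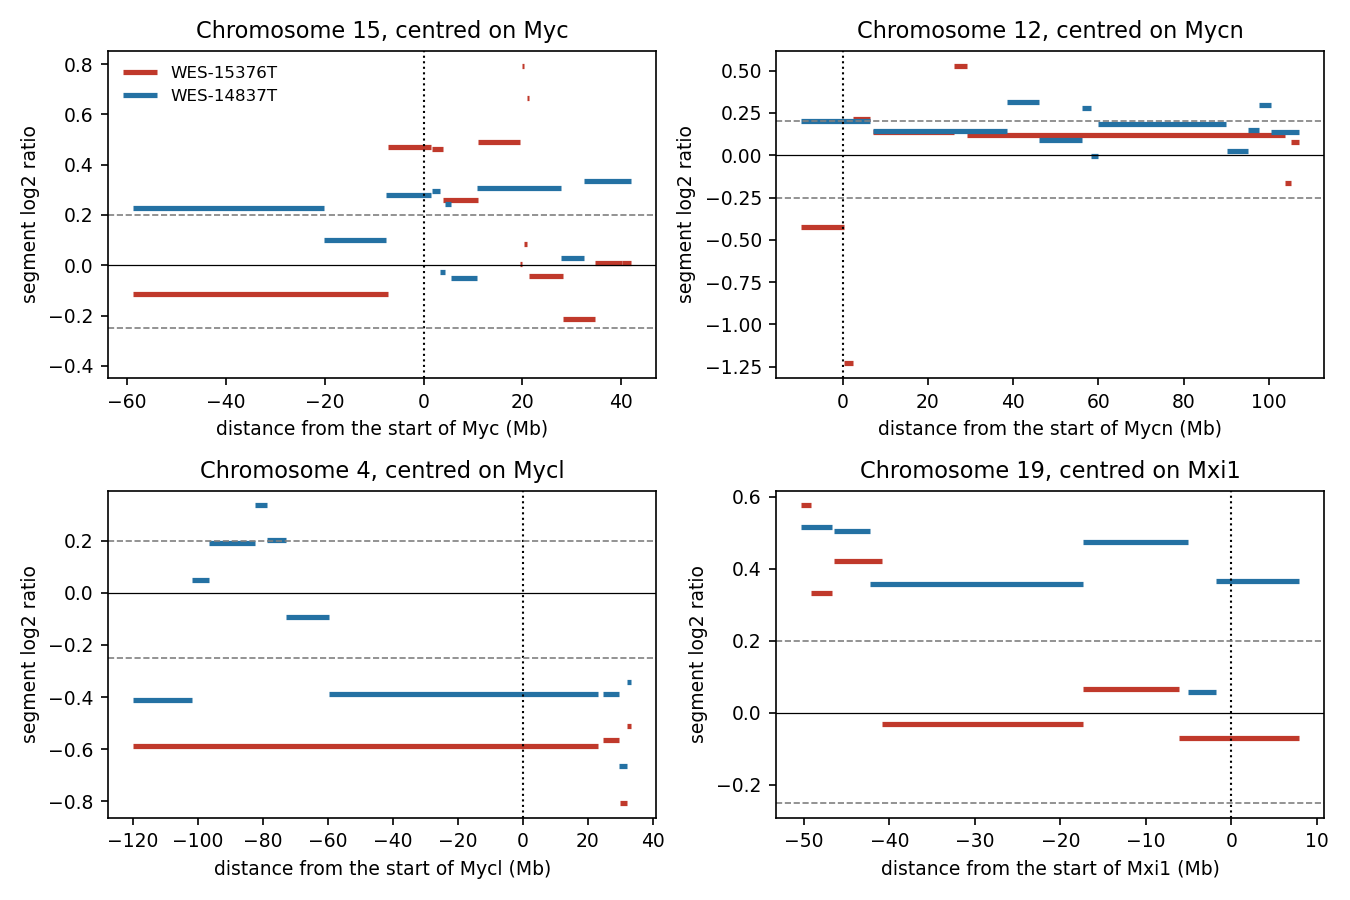
Segment log2 ratio (y axis) against the distance in Mb (x axis) from Myc, Mycn, Mycl and Mxi1, in 4 panels, with horizontal lines for the segments of 15376T and 14837T. Distances count from the start of each gene. The segment of Mycl spans most of its chromosome in both lines, and that of Myc spans 8.63 and 9.03 Mb. The low segment at -1.23 begins 0.439 Mb from the start of Mycn in 15376T.

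Max (chr12:76937269-76962323), the shared partner of the family, had log2 values of 0.12 in 15376T and 0.18 in 14837T and was called at 2 copies in both. The difference of -0.065 is within the SD of a difference. Its sign turned, to 0.015, with segment depths scaled by the mean autosomal depth in place of log2. With depths scaled by 2-copy segments the sign was kept, at -0.071. Max lies on the same chromosome as Mycn but in other segments, and it was at 2 copies where Mycn was called at 1 and at 3. In 14837T the log2 values of Mycn and Max were only 0.020 apart, within the SD of that line, on either side of the limit of 0.2. Mlx (chr11:101086707-101092207) had 0.050 in 15376T and 0.040 in 14837T, the smallest difference among the members. Myc exceeded Max by 0.35 on the log2 scale in 15376T and by 0.099 in 14837T.

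Among the members that oppose Myc at Max, Mxi1 (chr19:53310128-53373293) alone was called off 2 copies. Its log2 was -0.071 in 15376T, called at 2 copies, and 0.37 in 14837T, a ratio of 1.29 and a call of 3 copies. This difference of -0.44 is 3.35 times the SD of a difference, and 90.2% of autosomal genes differed by less. In 14837T the gain reached the right end of the covered chromosome over 9.68 Mb, and the segment to its left, of 88 bins, was at 0.058. Of chromosome 19, 94.2% of the length was gained in 14837T and 15.8% in 15376T. Mxi1 stood 0.086 above Myc in 14837T, within the SD of that line, and 0.54 below Myc in 15376T.

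Mxd1 (chr6:86647044-86669234) had a log2 of 0.14 in 15376T and -0.045 in 14837T. Mnt (chr11:74830806-74845725) had 0.056 and -0.052 in the same order, and Mga (chr2:119872503-119970129) had 0.0081 and -0.049. All were called at 2 copies in both lines. Only the difference of Mxd1, 0.19, passed the SD of a difference, at 1.42 times.

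The BAF differed among members that shared a call of 2 copies. That of Mnt was 1 in both lines, with allele calls of 2 and 0 copies, the same as for Max, Mlx and Mga. For Mxd1 it was 0.098 in 15376T and 0.4 in 14837T. In 14837T the allele call of Mxd1 was 1 copy of each, the only such split among the members. Every other member, gained, lost or at 2 copies, had 0 copies called for the second allele in both lines. The lines come from C57BL/6 mice, and whether such a call means loss of an allele was not tested. The BAF of Mga was 0.091 in 15376T and 0.214 in 14837T. For the other members it lay between 0.019 and 0.098, beside an autosomal median of 0.077 in 15376T and 0.061 in 14837T. The number of variants behind each BAF is not in the tables used here, so no error can be given.

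In 15376T, 2 of the 10 members were gained, beside 9.09% of autosomal genes, and 2 were lost, beside 30.1%. In 14837T, 4 were gained, beside 21.4% of autosomal genes, and 1 was lost, beside 28.8%. Both gained counts include Myc and Pvt1, which share a segment and are 1 measurement, so they overstate the number of separate gains. Myc and Pvt1 were gained in both lines, as were 6.87% of genes, and Mycl was lost in both, as were 22.4%. Max, Mlx, Mxd1, Mnt and Mga were at 2 copies in both, beside 41.4% of genes. The calls differed for Mycn and Mxi1, 2 of 10 members, beside 29.3% of genes. The median log2 of the members, with Myc and Pvt1 both counted, was 0.053 in 15376T and 0.11 in 14837T, beside -0.023 and -0.045 over autosomal genes.

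In falling order of log2, 15376T gave Myc with Pvt1, Mxd1, Max, Mnt, Mlx, Mga, Mxi1, Mycn and Mycl. Neighbors in that order were further apart than the SD of 2-copy segments in 3 of 9 pairs, namely Pvt1 and Mxd1, Mxi1 and Mycn, and Mycn and Mycl. In 14837T the order was Mxi1, Myc with Pvt1, Mycn, Max, Mlx, Mxd1, Mga, Mnt and Mycl, and 2 of 9 pairs were further apart, Max and Mlx, and Mnt and Mycl. The other neighbors did not differ beyond that spread.

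**Figure D3:**
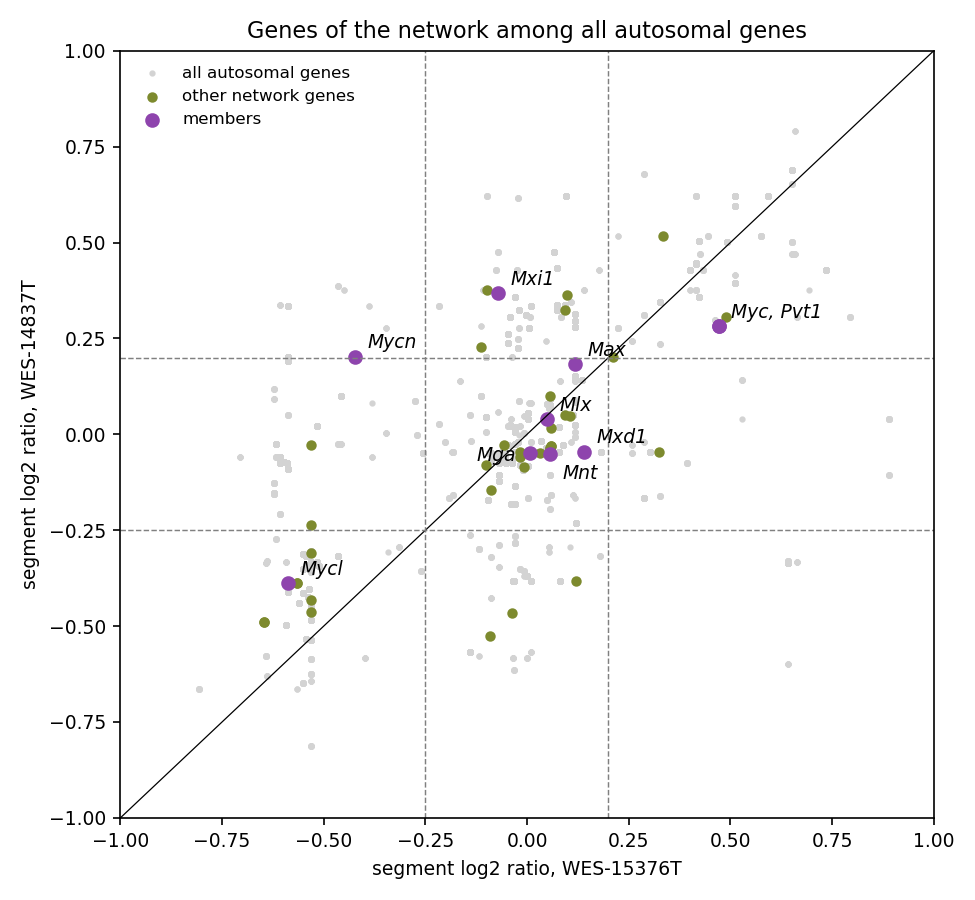
Segment log2 ratio in 15376T (x axis) against that in 14837T (y axis) for autosomal genes (grey), genes of the Myc network lists (olive) and the 10 members (purple), with 21 genes outside the axes. Mycn lies at -0.42 and 0.20, Mxi1 at -0.071 and 0.37, and Mlx, Mnt and Mga near the center. Max lies at 0.12 and 0.18, and Mxd1 at 0.14 and -0.045.

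The gene tables also give each listed gene its own depth, but they list only genes whose segment had an absolute log2 of 0.40 or more. For this reason 4 of the 10 members were listed in 15376T and 0 in 14837T. All listings numbered 7960 in 15376T and 4755 in 14837T, or 36.1% and 21.6% of the number of gene names. The own depth of Myc was 67.0 over 3 bins, beside a median of 76.7 for 29 neighbors of its segment within 5 Mb, of which 9 were lower. Pvt1 had 39.6 over 5 bins, with 3 of 29 neighbors lower. Mycn had 21.9 over 2 bins, beside a median of 39.0 for 25 neighbors, of which 1 was lower. Mycl had 9.08 over 3 bins, beside a median of 33.4 for 154 neighbors, of which 1 was lower. All of these members lay below their neighbors' median, by -0.20 for Myc, -0.95 for Pvt1, -0.83 for Mycn and -1.88 for Mycl on the log2 scale. The SD of that measure among neighbors was 0.56, 0.47 and 0.55 around Myc, Mycn and Mycl.

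Depth over so few bins is not a measure of copy number alone. Across 949 autosomal genes of 2 to 5 bins listed in both lines, the log2 of a gene's depth over that of its segment had a Pearson r of 0.92 between the lines, which is across genes and not across replicates. The methods and the labels name different capture kits, from NimbleGen and Agilent, both of them human exome kits used here on mouse DNA, and which was used is not known. The part of capture in the low depth of Mycl was not tested, since Mycl is not listed in 14837T.

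**Figure D4:**
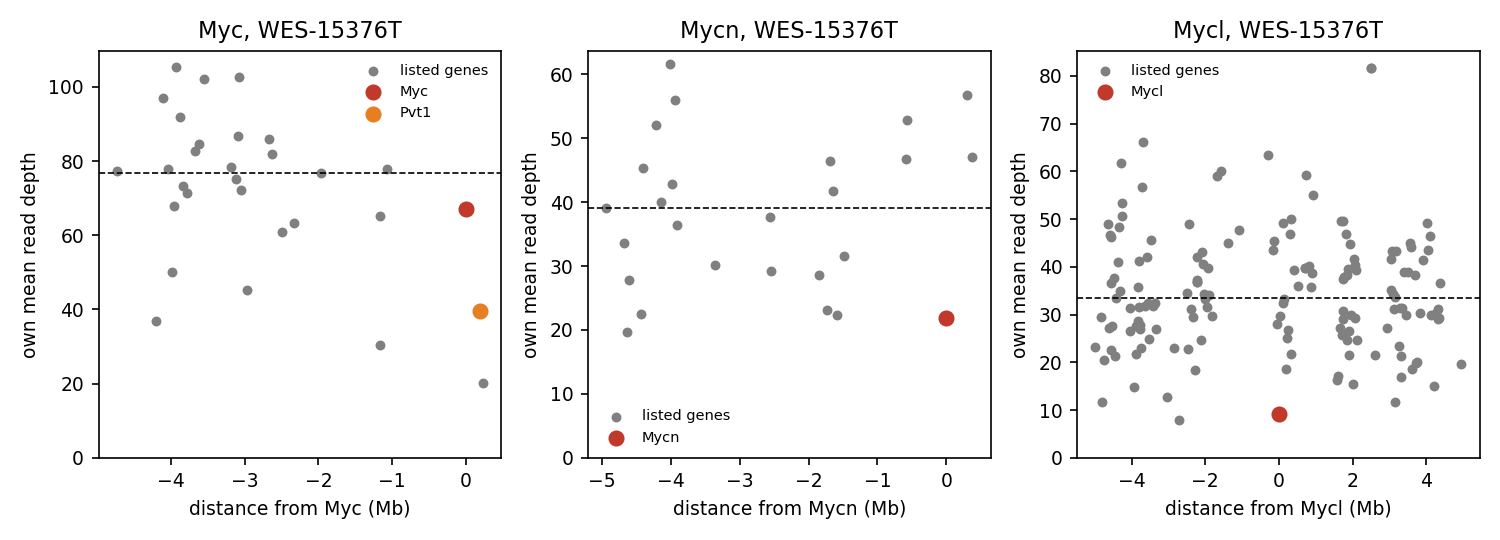
Mean read depth (y axis) of listed genes of the same segment in 15376T against distance in Mb (x axis) from Myc, Mycn and Mycl, with Pvt1 in orange and the median of the neighbors as a dashed line. Mycl, at 9.08, lies far below the median of 33.4, and Myc, at 67.0, lies near the median of 76.7.

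The segments on other chromosomes most like that of Myc in both log2 values, of at least 100 bins, were found on chromosomes 12, 3 and 6. Chromosome 12 (39158544-42110301) had 0.53 in 15376T and 0.14 in 14837T, chromosome 3 (37465215-45378698) had 0.43 in both, and chromosome 6 (141648439-149556713) had 0.33 and 0.22.

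A further 41 genes of the network were counted in 4 lists, of which 40 are autosomal and Huwe1, on chromosome X, was not counted. In 15376T 4 were gained and 12 lost, and in 14837T 7 were gained and 13 lost, with 10 called differently and 17 at 2 copies in both. These counts and those of each list below read against the shares of autosomal genes. Of these, 9.09% were gained and 30.1% lost in 15376T, and 21.4% were gained and 28.8% lost in 14837T. The calls differed for 29.3% of autosomal genes, and 41.4% were at 2 copies in both. Several of the list genes share a segment with a member or with each other. No gene of the lists had an absolute log2 of 0.7 or more in either line.

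Of the 4 other Max and Mlx network genes, 0 were gained in either line. Mxd3, a further Max partner that represses, was lost in 14837T alone, with log2 values of -0.036 in 15376T and -0.47 in 14837T. Of 12 cofactors, 1 was gained and 4 lost in 15376T, and 2 were gained and 2 lost in 14837T. Kat5, an acetyltransferase gene, was gained in both, at 0.33 and 0.52. Trrap, a scaffold of acetyltransferase complexes, had 0.094 and 0.32. Sin3a, the corepressor that Mxd proteins and Mnt recruit, was at -0.53 and -0.029, and Ruvbl2, an ATPase gene, at -0.53 and -0.24, so both were called lost in 15376T alone, although the value of Ruvbl2 in 14837T lies within the SD of the limit of -0.25. Zbtb17, which encodes the Myc partner Miz-1, and Hdac1 were lost in both lines as part of the segment of Mycl.

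Of 8 autosomal genes of Myc stability, 0 were gained and 3 lost in 15376T, and 3 were gained and 3 lost in 14837T. Among those gained in 14837T were Fbxw7, at -0.098 in 15376T and 0.38 in 14837T, and Skp2, at -0.11 and 0.23. Fbxw7 and Skp2 encode F-box proteins that mark Myc for degradation. Lost in both lines were Plk1, at -0.53 and -0.46, and Gsk3b and Cip2a, which share a segment in each line, at -0.65 and -0.49.

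Of 16 Myc target genes, 3 were gained and 5 lost in 15376T, and 2 were gained and 7 lost in 14837T. Odc1, the ornithine decarboxylase of polyamine synthesis, was gained in both, at 0.21 and 0.20, values within the SD of the limit of 0.2. In 14837T Odc1 shared the segment of Mycn. Bop1, a ribosome assembly gene, was gained in both as well, at 0.49 and 0.31. Ldha, the lactate dehydrogenase of glycolysis, was lost in both, at -0.53 and -0.43. Fbl, a nucleolar methyltransferase gene also on chromosome 7, was lost in both, at -0.53 and -0.31. Eno1, Srm and Rcc1, all on chromosome 4 with Mycl, were lost in both too, between -0.59 and -0.56 in 15376T and at -0.39 in 14837T. The calls differed for Ccnd2, a cyclin gene, at 0.33 and -0.045, for its partner kinase Cdk4, at 0.12 and -0.38, and for Tert, the telomerase subunit, at -0.091 and -0.53.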

How the data were processed

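For each line the authors deposited a segment table and a gene table from WES on mm10 (submitters' processing notes). The aligner, the caller and the reference are not given in the sources used here. The columns are those of CNVkit. Over autosomal segments, copy numbers above, at and below 2 followed its default limits of 0.2 and -0.25 with 0 exceptions. That check did not cover its further limits, such as -1.1 for 0 copies. In the deposited tables, log2 is the ratio of coverage to that reference, BAF is a fraction of reads, and depth is a coverage signal that was not normalized. A deposited weight, which is a score, was not used. No interval can be set on a segment.

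Starts, which count from 0, were written counting from 1. Genes were taken from the segment tables and positions from RefSeq (GRCm38.p6). Names in more than 1 segment of a line were left out. Named genes were the members, the gene on either side of each, and network-list genes with a different call or an absolute log2 of at least 0.7. A gene of the lists that the rule names is not reported here. Members and lists were chosen with earlier results of these data known. List genes outside the rule that are named (genes called alike in both lines) and Nbas were named after their values were seen. As alternatives, calls were set from 0.3 or 0.5 on either side of 0, beside recentred log2, depth ratios and other neighbor sets. Steps were tested on simulated data. Python 3.11.15, numpy 2.4.6, pandas 2.3.3 and matplotlib 3.10.9 were used.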

Additional observations from a re-analysis of the deposited data

Results flagged for a closer look

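Mycn was singled out because the lines had opposite calls, a loss in 15376T and a gain in 14837T, and its log2 differed (15376T minus 14837T) by -0.63. The difference was not tested, since each line has 1 library.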

How the results depend on the processing

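No paired analysis was possible because the lines have a single library each and no result comes from a test. At an absolute log2 of 0.3, 1 member was gained in 14837T in place of 4, since Myc, Pvt1 and Mycn were no longer called there, and 4 members differed between the lines in place of 2. Of autosomal genes 17.3% were then gained in 14837T and 25.3% differed. At 0.5, 0 members were gained in 15376T and 0 in 14837T, 1 was lost in 15376T and 0 in 14837T, and 1 differed. Of autosomal genes 2.48% were then gained and 27.9% lost in 15376T, 4.30% gained and 3.05% lost in 14837T, and 31.3% differed. Of the network lists 0 genes were gained and 12 lost in 15376T, 1 was gained and 1 lost in 14837T, and 14 differed in place of 10. With log2 recentred on the autosomal median, Max was also gained in 14837T, at 0.23. Recentring also moved the log2 of Mxd1 in 14837T, called at 2 copies, from -0.045 to 0.0036. The difference of Max between the lines turned from -0.065 to 0.015 with segment depths scaled by the mean autosomal depth. The differences of the other 9 members kept their sign there and with recentred log2. With depths scaled by 2-copy segments, Max kept its sign, at -0.071, and Mlx turned from 0.0097 to -0.028. No call turned from gained to lost or from lost to gained. The comparison of own depths between the lines was planned and not run, since no member is listed in 14837T. Own depths against neighbors kept their direction with neighbors within 10 Mb and with neighbors of at least 3 bins. Own depths rest on 2 to 5 bins, which limits them.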
